A study of Mus musculus with 6 samples.

Results

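Ligands of the TNF superfamily and their receptors pass signals between immune cells. Here 10 of them were followed in macrophages with and without a myeloid deletion in the gene of AUF1. They were chosen by name, as 4 ligands (Lta, Ltb, Tnfsf9 and Tnfsf12) and 6 receptors (Tnfrsf1a, Tnfrsf1b, Cd40, Fas, Ltbr and Tnfrsf11a), from the 55254 gene symbols of the count table, of which 18430 had at least 1 count. Where a gene had several transcripts, the one with most counts on average stands for it. AUF1, the product of the hnRNPD gene, is a protein that binds AU-rich elements in mRNAs. The libraries came from bone marrow-derived macrophages (BMDMs) of C57BL/6J mice aged 6 to 8 weeks. The control group (n = 3) carried hnRNPD alleles with loxP sites around exons 3 and 4 and no Cre, and the M-Δx3,4 group (n = 3) carried the same floxed alleles with LysMCre, which removes these exons in cells of the myeloid lineage. All cultures were grown for 10 days with L929-conditioned medium and then received LPS (100 ng/ml) for 4 hrs, so no library shows the unstimulated state, and every difference below is one between genotypes under LPS.

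TNF superfamily ligands are mostly membrane proteins that act as trimers and can be shed from the cell surface. Their receptors fall into those with a death domain, such as Tnfrsf1a (TNFR1) and Fas, which can lead to apoptosis or to NF-κB, and those that recruit TRAF adaptors directly, such as Tnfrsf1b (TNFR2), Cd40, Ltbr and Tnfrsf11a (RANK). In macrophages Cd40 receives help from T cells, the TNF receptors relay the cell's own TNF, and Tnfrsf11a drives osteoclast formation. Several mRNAs of the superfamily carry AU-rich elements in their 3′ UTRs.

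Because AUF1 is known for binding AU-rich elements, the annotated 3′ UTRs of the 10 transcripts (GENCODE vM21, GRCm38) were read for the pentamer ATTTA and for the longer TTATTTATT, which contains it. The mRNA strand alone was searched. Of the 10 transcripts, 7 held at least 1 ATTTA, against 69.4% of 9736 annotated 3′ UTRs of tested genes. Cd40 had 7 copies in 2035 bases, Tnfrsf11a 5 in 3115 bases, Lta 3 in 572 bases, Tnfsf9 2 in 253 bases, Tnfrsf1b 2 in 2324 bases, and Ltbr and Tnfsf12 1 each. Ltb, Tnfrsf1a and the short Fas transcript that represents Fas had none. Lta was the only one with a TTATTTATT, which was found in 3.56% of the 2078 3′ UTRs of like length (within 1.5 times). The 30 bases of the 3′ UTR richest in ATTTA, or the first of these where several windows tied, are shown for the 2 ligands and the receptor with most copies, with each ATTTA in capitals.
Lta: tatggagagaaaagttaagttATTTATTTA
Tnfsf9: tctcttgtctttaactggacttggtATTTA
Cd40: gtactggctaaataaatctgtaattATTTA
The Lta stretch lies 304 to 333 bases after the stop codon, that of Tnfsf9 at 87 to 116 and that of Cd40 at 329 to 358. A match of letters is a description of the sequence and not of binding.

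Promoter sequences from RefSeq (GRCm38.p6, from 250 bases before to 50 after the gene start) were at hand for 7 of the 10 genes, without Cd40, Tnfsf9 and Tnfsf12. They were searched on both strands for the NF-κB consensus, since LPS and the TNF receptors both act through NF-κB. Ltb was the only one of the 7 with a match, 87 to 78 bases before the RefSeq gene start, while 8.46% of 32851 promoters of the same length had one. RefSeq and GENCODE starts can differ, and the search was not repeated around GENCODE starts. The GENCODE vM21 start of Ltb (35194439) falls at the end of the stretch below. The surroundings of the match are shown with the match in capitals, as chr17:35194410-35194439 on the plus strand.
Ltb: aagggtgttcGGAAAGTCCCcgggcagggg

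Sequencing depth and cell identity set the limits of what follows. Taking 1 transcript per gene, the libraries held 2503125 to 3846215 counts, so that the 3 counts taken as the floor of detection equal 0.78 to 1.2 CPM, counts scaled to the library total. Hnrnpd was lower in M-Δx3,4 by the transcript of the p37 isoform (log2 fold change -2.11, standard error 0.54, and -3.02 without M-Δx3,4 replicate 1), with libraries that did not overlap. Its transcript with most counts, ENSMUST00000172361, had a log2 fold change of -0.57 and overlapping libraries. Over 4723 genes whose mean exceeded 50 normalized counts, which are not independent replicates, control replicate 1 correlated with M-Δx3,4 replicate 3 at 0.971 and with control replicate 3 at 0.764. All 9 macrophage markers were detected, with summed levels of 7930 to 11110 normalized counts in control and 6438 to 8583 in M-Δx3,4 libraries. Lyz2, the gene that carries the Cre in this line, was lower in M-Δx3,4 (-0.91). All 5 markers of mast cells and basophils were at 0, the neutrophil markers summed to 388.1 to 693.9 in control and 481.4 to 728.2 in M-Δx3,4 libraries, and those of dendritic cells to at most 12.2 in any library. The 5 fibroblast markers summed to 48.8, 28.6 and 2.4 in control and 33.2, 1.9 and 6.1 in M-Δx3,4 libraries. Of these Col3a1, named after its values were seen, had an unadjusted p under 0.05 in edgeR, at 13.9, 6.1 and 0 in control and 0 in every M-Δx3,4 library. It passed the filter on low counts, given below, only through control libraries, which favours a value below 0.

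Compared as levels per length (the authors' TPM, over all 6 libraries), the receptors stood above the ligands with the exception of Tnfrsf11a. Cd40 came first with 98.4 ± 23.6 TPM, followed by Tnfrsf1a with 92.8 ± 19.4, Tnfrsf1b with 54.9 ± 9.22 and Ltbr with 27.4 ± 5.97 (SD, n = 6). Fas had 6.06 ± 1.19 TPM. Tnfsf9, Ltb and Tnfrsf11a had 1.92 ± 0.949, 1.92 ± 1.37 and 1.88 ± 0.642 TPM when the genotypes were pooled (for Ltb, 0.950 in control and 2.88 in M-Δx3,4), and Tnfsf12 (0.378 ± 0.124) and Lta (0.127 ± 0.125) were the lowest. The ranges over libraries overlapped between Cd40 and Tnfrsf1a, between Tnfrsf1a and Tnfrsf1b, among Tnfsf9, Ltb and Tnfrsf11a, and between Tnfsf12 and Lta, and that of Ltb (0.185 to 4.04) also overlapped those of Tnfsf12 and Lta. They did not overlap between Tnfrsf1b and Ltbr or between Ltbr and Fas. Reads from 3′ ends do not grow in number with the length of a transcript, so dividing by length lowers the values of long regions such as those of Tnfrsf11a and Tnfrsf1b.

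Across the members, 9 of 10 passed the filter on low counts (a normalized count above 4.89 in at least 1 library), and 1 of the 9, Ltb, had an unadjusted p under 0.05. Its log2 fold change was also larger than 1 in size, and both cutoffs together form the threshold. The study used the same cutoffs but applied them to a p combined over several methods. Here the p is that of edgeR alone, so passing the threshold is not a call by the study. The background was 3.98% of 11873 genes for the p alone and 3.07% for the threshold, so 1 in 9 is a count of a single gene. No member had an adjusted p under 0.05 in edgeR or DESeq2, like 0.0% of all genes in edgeR. For the tested members 3 log2 fold changes were above 0 and 6 below, with a median of -0.27 against -0.006 over all genes. Over all genes 5877 were above 0 and 5996 below. Of the members below 0, Tnfsf12 passed the filter only through control libraries, which favours a value below 0. The groups were fully separated for Ltb and Tnfrsf1a alone among the tested members, against 8.44% of all genes. In the exact permutation test (two-sided) 3 libraries against 3 cannot give a p under 0.1. Whether the libraries of a group come from separate mice is not stated, so p-values measure the spread between these cultures.

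**Figure D1:**
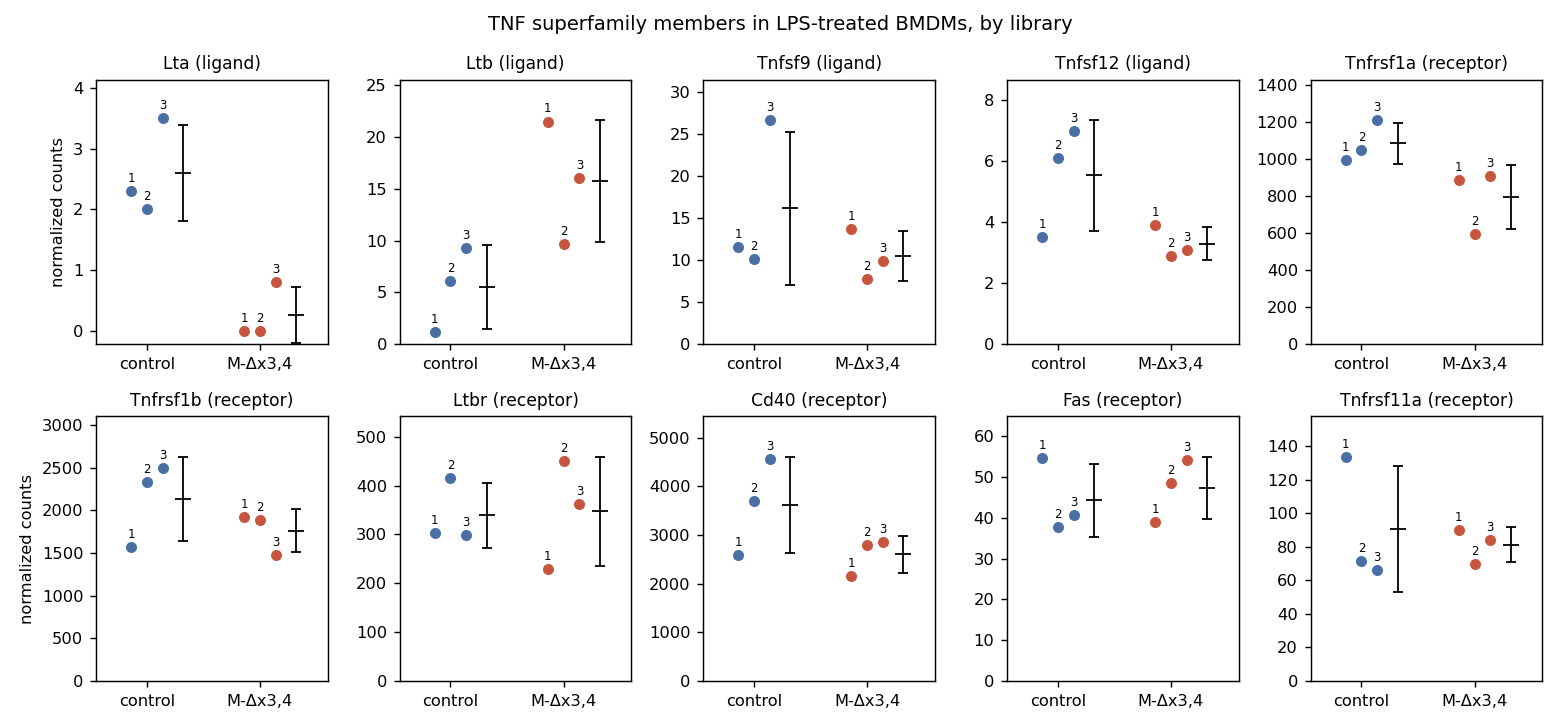
Normalized counts of the 10 members (y axis, from 0 or just below it, one scale per gene) in the 3 control (blue) and 3 M-Δx3,4 (red) libraries. Points carry the replicate number, and bars give the mean ± SD. Ltb is above in all M-Δx3,4 libraries, Lta and Tnfrsf1a are below, and the groups overlap for the other 7.

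Ltb encodes lymphotoxin β, the membrane anchor of the lymphotoxin heterotrimer that signals through Ltbr. Its counted region (chr17:35196147-35196551, plus strand) covers the 3′ UTR in exon 3 and 249 bases beyond it, and the other 2 annotated transcripts with counts held the very same reads. For ENSMUST00000173510 the counted region starts only at 35196306, past the annotated end of the Ltb transcript at 35196302. All of these reads thus reached beyond that end. The control libraries had 1.2, 6.1 and 9.3 normalized counts and the M-Δx3,4 libraries 21.5, 9.7 and 16. Every M-Δx3,4 library was thus above every control library, but M-Δx3,4 replicate 2 (9.7) and control replicate 3 (9.3) nearly met. The log2 fold change was 1.49 (standard error 0.69, 95% confidence interval 0.02 to 2.95, unadjusted p = 0.0468 and adjusted p = 0.984 in edgeR). These are 1, 6 and 8 reads against 22, 10 and 21. The unadjusted p lay above 0.05 with DESeq2 (0.0758), with 1 transcript per gene (0.0601), and on leaving out control replicate 1 (log2 fold change 1.03), control replicate 2 (1.57), M-Δx3,4 replicate 1 (1.21) or M-Δx3,4 replicate 3 (1.47).

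Lymphocytes are a known source of Ltb, so their markers are given beside it. All 8 B cell markers had a count in some library, and their sum was 306.8 to 369 normalized counts in control and 151.5 to 170.2 in M-Δx3,4 libraries. It was thus lower where Ltb was higher. Igkc was the largest single part of the sum in every library (223.2, 228.9 and 251.8 against 83.1, 59.2 and 95.5), while Ms4a1 did not exceed 3.1 in any library. The single markers did not all move with the sum, since of 5 tested 3 were lower and 2 higher in M-Δx3,4. Among the higher was Cd79b, named after its values were seen (20.9, 26.6 and 18.6 against 33.3, 37.9 and 16). Of the 9 T and NK cell markers, Cd3e, Cd3g, Cd2, Ncr1 and Klrb1c were at 0 in every library, and the list summed to 47 to 63.9 in control and 27.5 to 43.7 in M-Δx3,4 libraries. The part of these cells in the Ltb counts was not tested, and in such bulk samples fewer cells of a type and less RNA per cell cannot be told apart.

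Lta encodes lymphotoxin α, which forms a soluble homotrimer for the TNF receptors and the heterotrimer with lymphotoxin β. It lies on the same chromosome as Ltb and on the other strand (region chr17:35202916-35203736). The control libraries had 2, 2 and 3 reads and the M-Δx3,4 libraries 0, 0 and 1. The groups did not overlap and the order was the reverse of that of Ltb, yet no library exceeded the floor of 3 counts. Lta was therefore not tested and no fold change is given, and a difference was not detectable at this depth.

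Tnfsf9 and Tnfsf12 completed the ligands. Tnfsf9, a costimulatory ligand for T cells, had 11.6, 10.2 and 26.7 normalized counts in control and 13.7, 7.8 and 9.9 in M-Δx3,4 libraries. Control replicate 3 stood above the rest, which overlapped. The log2 fold change was -0.62 (95% interval -1.84 to 0.60), and without that library it was -0.05. Tnfsf12, which encodes TWEAK, had 3.5, 6.1 and 7 in control and 3.9, 2.9 and 3.1 in M-Δx3,4 libraries. At 3 to 6 reads per library its interval spanned -2.66 to 1.20 around a log2 fold change of -0.73.

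The TNF receptors were the best measured members together with Cd40. Tnfrsf1a, the death domain receptor present on most cells, had 993.7, 1050 and 1210 normalized counts in control and 886.2, 597.2 and 905.6 in M-Δx3,4 libraries. All M-Δx3,4 libraries were below all control libraries, and the log2 fold change was -0.45 (standard error 0.30, 95% interval -1.10 to 0.20, unadjusted p = 0.164 and adjusted p = 0.984 in edgeR, p = 0.1 in the exact permutation test). Tnfrsf1b, the TNF receptor without a death domain, had 1568, 2330 and 2499 in control and 1922, 1892 and 1476 in M-Δx3,4 libraries. Here the groups overlapped through control replicate 1, and the log2 fold change was -0.27 (95% interval -0.92 to 0.37). Both receptors kept a negative log2 fold change with each library left out, from -0.55 to -0.28 for Tnfrsf1a and from -0.45 to -0.13 for Tnfrsf1b.

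**Figure D2:**
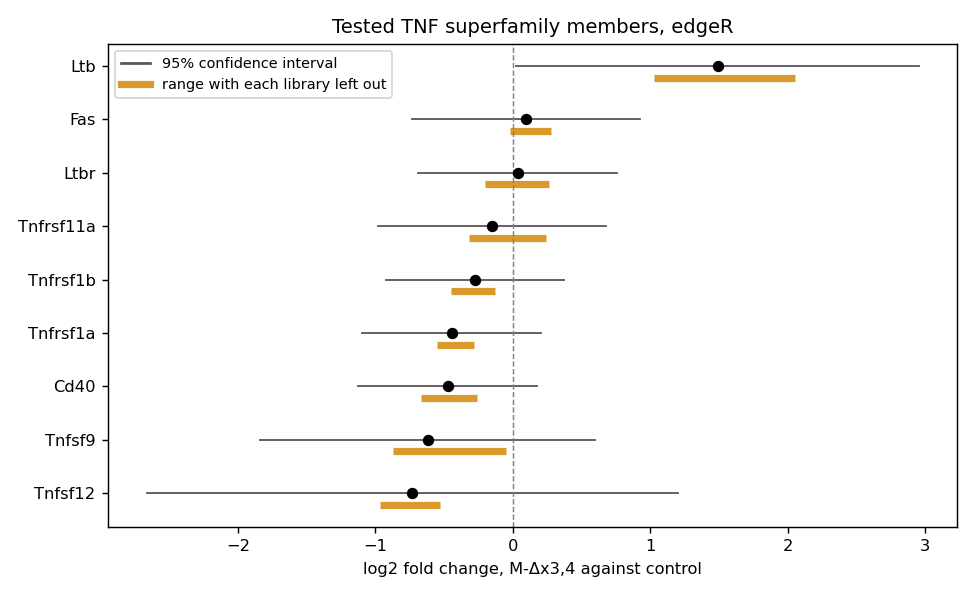
Log2 fold change of M-Δx3,4 against control (x axis) for the 9 tested members, with the 95% confidence interval (thin line) and the range over the fits that each left out 1 library (thick bar). The interval of Ltb lies just above 0, from 0.02 to 2.95, and those of the other 8 include 0.

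Tnfrsf1a was also counted in regions upstream of its terminal one, where the log2 fold changes were larger in size than at the terminal region. Its terminal region (chr6:125361995-125362733, plus strand) begins after the stop codon in exon 10. The transcripts ENSMUST00000144524 and ENSMUST00000134803 are annotated to end inside that exon, at 125361778 and 125361874. Their counted regions, an upstream one (chr6:125361779-125362027) and a middle one (chr6:125361875-125362123), begin past those ends. Both reach from the coding part of the exon into the 3′ UTR, so their reads do not count transcripts that end at these sites. The upstream region had 191.8, 143 and 97.5 normalized counts in control and 26.4, 53.4 and 94 in M-Δx3,4 libraries. The middle region had 297.5, 213.5 and 198.4 against 90, 89.3 and 171.2. In both, every M-Δx3,4 library was below every control library, closely so for replicate 3 of each group at the upstream region (97.5 and 94). The log2 fold changes were -1.30 (standard error 0.46, unadjusted p = 0.0119 in edgeR) for the upstream and -1.01 (standard error 0.37, unadjusted p = 0.0153 in edgeR) for the middle region. Both were past the threshold by the p of edgeR, and both had 0.984 as the adjusted p in edgeR.

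These regions share bases with each other and with the terminal region, so they are not separate measurements, and they were singled out after their values were seen. Per 100 reads of the terminal region, the upstream region had 19.3, 13.6 and 8.05 reads in control and 2.98, 8.94 and 10.4 in M-Δx3,4 libraries. That ratio overlapped between the groups (13.7 ± 5.62 against 7.43 ± 3.92, with p = 0.3 in the two-sided exact permutation test), so a shift between these regions was not shown. Without M-Δx3,4 replicate 1 the p of both regions exceeded 0.05 (log2 fold changes -0.97 and -0.86), and that of the middle region also without M-Δx3,4 replicate 2 (-0.85). A gene on the other strand, Plekhg6, overlaps 323 bases of the terminal region and had 0 counts in every library.

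Cd40, the receptor for the CD40 ligand of activated T cells, was the most highly counted member. It had 2586, 3694 and 4566 normalized counts in control and 2156, 2797 and 2851 in M-Δx3,4 libraries. Control replicate 1 lay among the M-Δx3,4 libraries, while control replicates 2 and 3 were above all of them. The log2 fold change was -0.48 (standard error 0.31, 95% interval -1.13 to 0.18, unadjusted p = 0.142, adjusted p = 0.984 in edgeR). Without control replicate 1 it was -0.67 with an unadjusted p of 0.0329, the only fit in which Cd40 came under 0.05. The B cell marker sum, which also includes cells that carry Cd40, had moved the same way, and its part was not tested.

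Most Cd40 reads came from the beginning of its long 3′ UTR in exon 9. The counted region runs over chr2:165070914-165073197, and the part beyond 165071903 held 1.79% ± 0.478 of its reads in control and 2.32% ± 0.421 in M-Δx3,4 libraries (p = 0.2 in the two-sided exact permutation test). The first 741 bases of the 3′ UTR, up to the annotated end of ENSMUST00000073707, hold 4 of the 7 ATTTA. The region of ENSMUST00000184221 (chr2:165070722-165071249), an annotated target of nonsense-mediated decay, had 75.2, 80.5 and 81.8 reads per 100 of the long region in control and 68.4, 73.5 and 77.2 in M-Δx3,4 libraries. The groups overlapped in this ratio (p = 0.2 in the two-sided exact permutation test). The log2 fold change at that region was -0.59 (unadjusted p = 0.0854 in edgeR), beside -0.48 over the whole region.

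Ltbr, the receptor of the lymphotoxin heterotrimer, had 302.2, 414.8 and 299.3 normalized counts in control and 228.9, 450.6 and 362.2 in M-Δx3,4 libraries. The groups covered the same range, with a log2 fold change of 0.04 (95% interval -0.69 to 0.76). So the receptor of Ltb was measured with an interval that leaves out a change of 2-fold in either direction. The same held for Tnfrsf1b, Fas and Tnfrsf11a, that is for 4 of the 9 tested members, and not for Tnfrsf1a, Cd40 or the ligands. Tnfrsf11a, the receptor for RANKL, had 133.7, 71.5 and 66.1 in control and 90, 69.9 and 84.1 in M-Δx3,4 libraries. Control replicate 1 was the highest library, and the log2 fold change of -0.15 became 0.24 without it.

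Fas, the death receptor for Fas ligand, was read mainly at an end inside the gene. Its transcript with the highest count, ENSMUST00000112472, has 3 exons and ends in intron 2 of the full-length ENSMUST00000025691 (region chr19:34309044-34309599, plus strand), whereas full-length Fas ends in exon 9 (region chr19:34327325-34328021). Both annotated ends follow an ATTAAA hexamer, a common variant of the poly(A) signal, shown here in capitals because reads were counted at both ends.
Short Fas transcript: ATTAAAatacactgtatgcttacagcaatt
Full-length Fas transcript: ATTAAAgtatctctttttgcatttcta
The region of the short transcript had 54.6, 37.8 and 40.6 normalized counts in control and 39.1, 48.6 and 54.3 in M-Δx3,4 libraries, and that of the full-length transcript 36, 22.5 and 26.7 against 22.5, 33 and 26.7. The groups overlapped at both ends, with log2 fold changes of 0.10 and -0.05. Of the reads at the 2 ends, 61.1% ± 1.39 lay at the intronic end in control and 63.3% ± 3.73 in M-Δx3,4 libraries (p = 0.5 in the two-sided exact permutation test). With 58 to 106 such reads per library, the Wilson 95% interval of a single library, which covers counting error only, ran for example from 49.2% to 70.4% in control replicate 1. The region in exon 9 is shared by 3 annotated Fas transcripts with the same counts, so it does not give the full-length isoform alone.

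**Figure D3:**
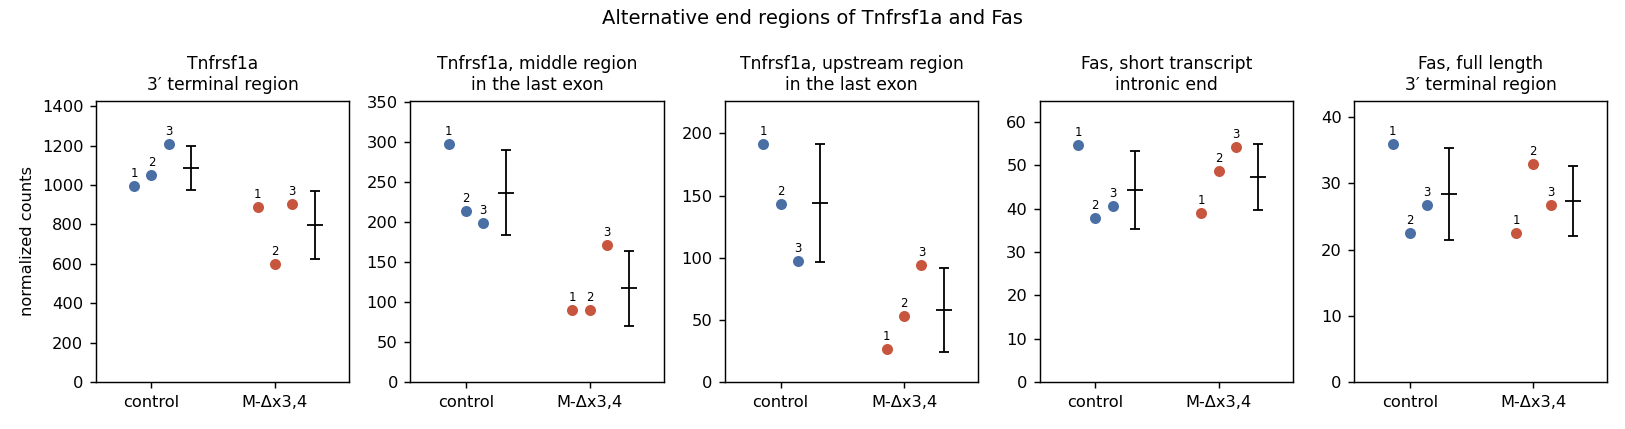
Normalized counts (y axis, from 0) at 3 regions in the last exon of Tnfrsf1a and at the 2 end regions of Fas in each library, with mean ± SD bars and replicate numbers. The groups do not overlap at any of the Tnfrsf1a regions, whose log2 fold changes are -0.45, -1.01 and -1.30 from left to right, and overlap at both Fas ends.

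The ligands of several receptors were not seen in these cultures. Cd40lg, Fasl and Tnfsf11 (RANKL), the ligands of Cd40, Fas and Tnfrsf11a, had 0 counts in every library, which allows a level of up to 0.78 to 1.2 CPM. Tnfrsf9, the receptor of Tnfsf9, had at most 4 reads in a library and Tnfrsf12a, the receptor of Tnfsf12, at most 10. These 5 were named after their values were seen. Tnf itself, the ligand of Tnfrsf1a and Tnfrsf1b, had 2844, 2792 and 3964 normalized counts in control and 2732, 4885 and 3524 in M-Δx3,4 libraries, with a log2 fold change of 0.21 and overlapping groups.

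Among the 14 other ligands of the superfamily 9 had a count and 6 were tested, of which 3 were higher, 3 lower and none had an unadjusted p under 0.05 in edgeR or DESeq2. Their median log2 fold change was -0.01. Some of the 6 passed the filter on low counts only through an M-Δx3,4 library. After Tnf the highest were Tnfsf10 (TRAIL), with a log2 fold change of 0.39, and Tnfsf15 with -0.28. Of the 22 other receptors 18 had a count and 9 were tested, 2 higher and 7 lower, with a median of -0.33. None had an unadjusted p under 0.05 by either tool. Some of the 7 lower ones passed the filter on low counts only through control libraries, which favours a value below 0 for them. The highest of the 22 by mean count were Tnfrsf13b (TACI), Tnfrsf21 and Tnfrsf14 (HVEM), a receptor that also binds lymphotoxin α. Tnfrsf14 had 8.1, 6.1 and 1.2 normalized counts in control and 9.8, 13.6 and 10.7 in M-Δx3,4 libraries, without overlap, and a log2 fold change of 1.12 (95% interval -0.41 to 2.65). Tnfrsf13b also did not overlap (log2 fold change 0.34), and Tnfrsf21 did (-0.08).

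All 32 genes on the list of TNF receptor signalling were tested, 21 higher and 11 lower, with a median log2 fold change of 0.19. The list also holds Adam10 and Adam17, proteases of the cell surface that do not act downstream of the receptors. Over all genes 5877 were higher and 5996 lower. Adam10 and Nfkb2 had an unadjusted p under 0.05 in edgeR and passed the threshold by that p, against 3.98% and 3.07% of all genes. In DESeq2 3 of the 32 had an unadjusted p under 0.05. The groups did not overlap for 5 of the 32, against 8.44% of all genes. Adam10, a protease that sheds surface proteins, had 54.6, 36.8 and 26.7 normalized counts in control and 79.2, 67 and 106.2 in M-Δx3,4 libraries. The groups did not overlap, and the log2 fold change was 1.10 (standard error 0.41, unadjusted p = 0.0171, adjusted p = 0.984 in edgeR). Without control replicate 2 (1.05) or M-Δx3,4 replicate 3 (0.89) its p exceeded 0.05.

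Nfkb2, which encodes the precursor p100 of the NF-κB pathway that Ltbr, Cd40 and Tnfrsf11a use, had 103.4, 143 and 385.2 normalized counts in control and 113.5, 81.6 and 110.8 in M-Δx3,4 libraries. Control replicate 3 was far above the other libraries, and the other controls overlapped the M-Δx3,4 group. The log2 fold change of -1.04 (unadjusted p = 0.0351, adjusted p = 0.984 in edgeR) was -0.26 without that library, and the unadjusted p also exceeded 0.05 without any 1 of the M-Δx3,4 libraries (log2 fold changes -1.13, -0.91 and -1.11) and with the replicate block (-0.84). Its partner Relb had a log2 fold change of -0.53 with overlapping libraries. Traf1, an adaptor, had 635.8, 755 and 769.2 in control and 566.4, 456.4 and 460.8 in M-Δx3,4 libraries, without overlap (log2 fold change -0.54, unadjusted p = 0.0888 in edgeR). Adam17, the protease that sheds TNF and its receptors, ranged from 309.8 to 1308 among the control libraries alone and had a log2 fold change of 0.36.

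**Figure D4:**
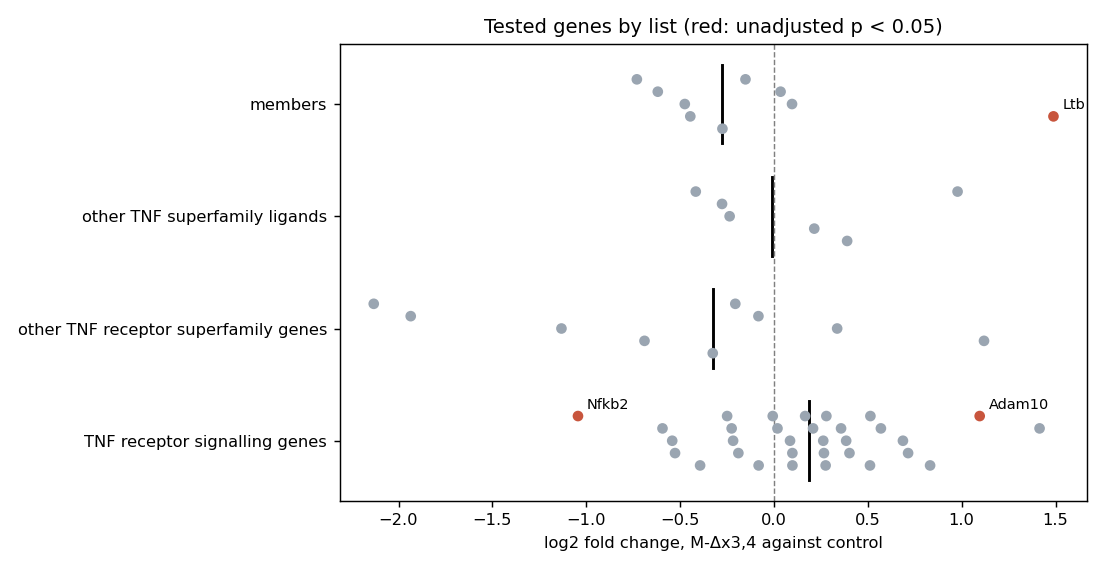
Log2 fold change of M-Δx3,4 against control (x axis) for each tested gene, by list: the 9 members, 6 other ligands, 9 other receptors and 32 signalling genes. Vertical bars are medians (-0.27, -0.01, -0.33 and 0.19), and the red points with an unadjusted p under 0.05 are Ltb, Nfkb2 and Adam10.

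The members that hold an ATTTA and those that do not were set side by side, with no test. Of the 7 with the pentamer 6 were tested, with log2 fold changes from -0.73 to 0.04, 5 of them below 0. The lowest of these, Tnfsf12, passed the filter on low counts only through control libraries. Of the 3 without the pentamer, Ltb was at 1.49, Fas at 0.10 and Tnfrsf1a at -0.45. Cd40, with the most copies in its annotated 3′ UTR (7), was at -0.48, and Tnfrsf11a, with the next most (5), at -0.15. That order rests on the long 3′ UTR of Cd40. The shorter 3′ UTR of ENSMUST00000073707, whose region held most Cd40 reads, has 4 copies. Each of these values but that of Ltb had a 95% interval that included 0.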

How the data were processed

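The data are 3′ end (QuantSeq) libraries of 3 control and 3 M-Δx3,4 BMDM cultures under LPS, sequenced on an Ion Proton. Per the labels and the study's methods, the authors mapped reads to mm10 with TopHat2 (2.1.1) and mapped the remainder with Bowtie2, then counted them on 3′ UTR regions of Ensembl transcripts with metaseqR2. The authors deposited raw counts per region, and TPM per transcript in a table whose fold changes and p-values of their own comparison were not used. Regions extend 249 bases past annotated ends.

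Counts of the regions of a transcript were summed and scaled by DESeq2's median of ratios. The fit took the 32475 transcripts that exceeded the overall median (4.89 normalized counts) in 1 library or more. The genotypes were compared with the quasi-likelihood test of edgeR (4.0.16), with Benjamini-Hochberg adjustment over all of them. Single ratios used the exact permutation test (scipy 1.17.1). DESeq2 (1.42.0) served as an alternative. The script was tested on simulated data. The text names the 10 members, Hnrnpd, Lyz2 and, from the lists of other superfamily and signalling genes, the 3 highest of each and any with an unadjusted p under 0.05. A few partner genes of the members, named after their values were seen, fall outside this rule. Members and lists were chosen with earlier results of these data known. Intervals of shares and floors cover counting error only, since reads carry no molecular identifiers. Marker lists are given mainly as sums.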

Additional observations from a re-analysis of the deposited data

How the results depend on the processing

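The single member with an unadjusted p under 0.05, and past the threshold, is near the limit of depth (1 to 22 reads per library). Both counts went from 1 to 0 with DESeq2, with edgeR's filterByExpr (which leaves 7 members and does not test Ltb), with 1 transcript per gene and with the replicate block. With each library left out in turn both ran from 0 to 1, and without control replicate 1 the member under 0.05 was Cd40 and not Ltb. The number of members with an adjusted p under 0.05 was 0 in every alternative. Replicate numbers are shared between the groups but did not pair the libraries (correlations of same-numbered deviations -0.213, 0.537 and -0.309). Replicate 2 correlated best with its own number, while control replicate 1 did so with M-Δx3,4 replicate 3 (0.542) and control replicate 3 with M-Δx3,4 replicate 1 (0.28). In the paired fit with the replicate block Ltb had a log2 fold change of 1.53 (unadjusted p = 0.0651 in edgeR) and Ltbr one of 0. The other superfamily and signalling genes under 0.05 went from 2 to 4 with no filter and ran from 0, without M-Δx3,4 replicate 3, to 12, without control replicate 1. The direction changed with a library left out for Ltbr (-0.20 to 0.26), Fas (-0.02 to 0.28), Tnfrsf11a (-0.32 to 0.24), Tnf (-0.03 to 0.41), Tnfsf15 (-0.60 to 0.50), Tnfrsf21 (-0.17 to 0.09) and Adam17 (-0.01 to 0.93). Ltbr was at -0.04, -0.03 and -0.20 without control replicate 1, control replicate 3 and M-Δx3,4 replicate 2, and Fas at -0.01 and -0.02 without control replicate 2 and M-Δx3,4 replicate 3. The cause was not tested. The other 6 tested members, both upstream Tnfrsf1a regions, Tnfsf10, Tnfrsf13b, Tnfrsf14, Traf1, Nfkb2, Relb, Adam10, Lyz2 and the p37 transcript of Hnrnpd kept their direction in every alternative that could test them. Other marker and partner genes were not recomputed. The alternatives for the upstream and middle regions of Tnfrsf1a and the genes that are not members were added after seeing the data.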
